A study of Homo sapiens with 6 samples.

Results

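Copper transporters and copper chaperones are described here as a set of 10 named genes, chosen by name for their known roles: SLC31A1, SLC31A2, ATP7A, ATP7B, ATOX1, CCS, SOD1, COX17, SCO1 and SCO2. The choice was made with earlier results of these data known. These genes are 10 of the 58825 genes in the expression table, and all 10 were among the 18229 genes with enough counts to be tested. The cells were MDA-MB-231, a human line from a triple-negative breast cancer, grown in 6-well plates. One group received the vehicle DMSO, and the other received disulfiram together with copper (DSF/Cu), given as 0.2 µM, both for 24 h. Disulfiram is a drug used against alcohol dependence, and its metabolite binds copper and carries it into cells. Each group held 3 repeats, and the cells of 3 wells were pooled into each repeat. There was no arm with disulfiram alone or copper alone, so the effects of the drug and of the metal cannot be told apart. All 6 libraries come from 1 cell line, at 1 dose and 1 time. No label says that the repeats were separate cultures, so the p-values rest on a spread between samples that may be technical only.

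Copper enters human cells through the membrane protein CTR1, the product of SLC31A1, and small chaperone proteins carry it from there to its users. ATOX1 hands copper to the pumps ATP7A and ATP7B, which load copper enzymes in the secretory pathway and expel surplus copper. CCS loads the superoxide dismutase SOD1, and COX17 passes copper through SCO1 and SCO2 to cytochrome c oxidase in mitochondria. Control of copper uptake and export is known to work in part through where these proteins sit and how long they last, which RNA does not show.

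Library totals ran from 55563223 to 70883177 counts, and a tested copper gene had between 65 and 17642 counts in a library. The line's markers VIM, CD44, CAV1, EGFR, AXL and FN1 summed to between 5288 and 5581 CPM in DMSO (counts relative to library size, scaled by the TMM method of edgeR) and between 4126 and 4600 CPM after DSF/Cu. VIM was the largest part, at 3297 CPM on average in DMSO and 2734 CPM after DSF/Cu. On average CAV1, EGFR and AXL were also lower after DSF/Cu, and CD44 and FN1 were higher. The receptor genes ESR1 and PGR stayed under 1 CPM on average in both groups, and ERBB2 was at 69.4 CPM in DMSO and 39.7 CPM after DSF/Cu. The 6 luminal markers, mostly the keratins KRT8 and KRT18, summed to between 310 and 369 CPM in DMSO and between 198 and 209 CPM after DSF/Cu. KRT8, KRT18 and EPCAM were lower on average after DSF/Cu. GATA3 (2.82 CPM in DMSO and 3.44 CPM after DSF/Cu) and FOXA1 (0.605 and 1.02 CPM) were higher, and CDH1 had at most 4 counts in a library. The T cell marker CD3E, the endothelial marker CDH5, the stromal marker DCN, the adipocyte marker ADIPOQ and the erythroid marker HBB had no count in any library. Sums over the 3 immune markers PTPRC, CD3E and CD14 were 0.121 to 0.448 CPM in DMSO and 1.16 to 2.46 CPM after DSF/Cu, and over all 4 fibroblast markers 2.21 to 3.24 and 6.70 to 8.59 CPM. The endothelial markers PECAM1 and CDH5 summed to 0.262 to 0.567 and 0.548 to 0.970 CPM, the erythroid markers HBB and HBA1 to between 0 and 0.0787 and between 0.0946 and 0.833 CPM, and the adipocyte markers ADIPOQ and PLIN1 to at most 0.121 CPM. ALB, a liver marker, reached at most 0.213 CPM. The part of these sums in the results below was not tested.

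DSF/Cu raised 3 of the 10 copper genes: the importer SLC31A1, the export pump ATP7A and the copper enzyme SOD1. None was called lower, and 7 were not called in either direction. A call is an adjusted p under 0.05 in edgeR's quasi-likelihood test with Benjamini-Hochberg adjustment over all genes tested. By that rule 18.5% of all tested genes were raised and 16.8% were lowered, so that calls were common across the transcriptome. At an unadjusted p under 0.05 there were 6 of the 10, of which 3 were higher, against 23.0% of all tested genes, and 3 (CCS, COX17 and SCO2) were lower, against 21.7%. In these same 6 genes the DMSO and DSF/Cu libraries did not overlap: 3 were higher in every DSF/Cu library, against 26.0% of all tested genes, and 3 were lower, against 25.2%. The median log2 change of the 10 genes was -0.070, and that of all tested genes was 0.0023. In bulk RNA, fewer cells of a type and less RNA per cell cannot be told apart.

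**Figure D1:**
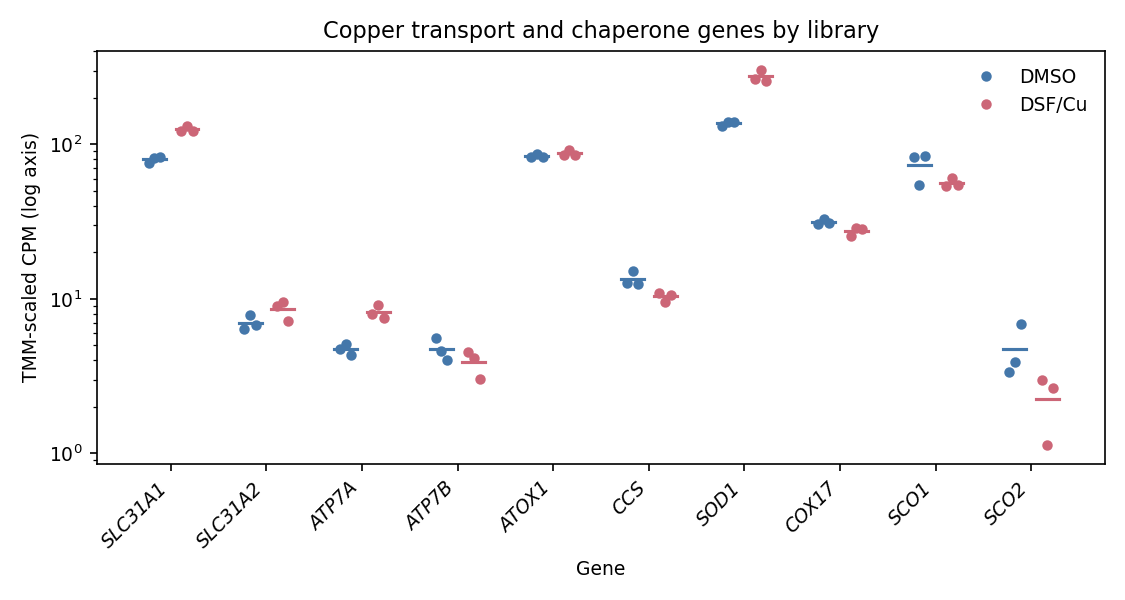
TMM-scaled CPM of each copper gene (log axis) in each library; points are the 3 libraries of a group and bars their mean. SLC31A1, ATP7A and SOD1 lie higher in all DSF/Cu libraries than in all DMSO libraries, and 1 DMSO library of SCO1 lies among the DSF/Cu libraries at 54.9 CPM.

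The main importer was among the raised genes, and its family member was not called. SLC31A1 (ENSG00000136868; chr9:113221544-113264492, plus strand of GRCh38) encodes CTR1, the high-affinity copper channel of the plasma membrane. Its level was 76.2, 81.9 and 82.9 CPM in the DMSO libraries and 121, 132 and 123 CPM in the DSF/Cu libraries. Every DSF/Cu library lay above every DMSO library, and libraries within a group differed little, with coefficients of variation of 4.49% and 4.65%. SLC31A1 rose 1.56-fold, a log2 change of 0.64 ± 0.06 (SE, n = 3 per group; 95% interval 0.49 to 0.79; adjusted p = 0.00061, edgeR's quasi-likelihood test with Benjamini-Hochberg adjustment).

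SLC31A2 (ENSG00000136867; chr9:113150976-113164140, plus strand) encodes CTR2, a relative of CTR1 found mainly on internal membranes. It had 6.41, 7.82 and 6.78 CPM in DMSO and 9.04, 9.54 and 7.15 CPM after DSF/Cu. The groups overlapped through the third DSF/Cu library, which lay below the highest DMSO library. The log2 difference was 0.29 ± 0.16 (95% interval -0.09 to 0.67; adjusted p = 0.204, edgeR). That interval includes no change and also includes the size of the SLC31A1 rise.

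SLC31A2 and SLC31A1 lie on the same strand of chromosome 9, 57403 bases apart, with FKBP15 between them on the other strand. FKBP15 was not called under TMM (log2 -0.14 ± 0.09, adjusted p = 0.286, edgeR), but was lower under total counts (log2 -0.33, adjusted p = 0.0384, edgeR). CDC26, a subunit of the anaphase-promoting complex, is on the strand opposite to SLC31A1 and overlaps its end, with no shared exon bases in GENCODE 29. CDC26 rose (log2 0.49 ± 0.10, adjusted p = 0.00858, edgeR), and the next gene, the splicing factor PRPF4, was not called (log2 -0.02 ± 0.06, adjusted p = 0.808, edgeR). FKBP15 covers 63.1% of the exon bases of SLC31A2 and had a mean of 4252 counts per library against 483 for SLC31A2. The strand setting of the counting is not given in the sources used here, so reads of this pair may not be separated and the SLC31A2 values are uncertain.

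Of the export pumps, ATP7A rose and ATP7B was not called. ATP7A (ENSG00000165240; chrX:77910656-78050395, plus strand) encodes the Menkes disease pump, the exporter of most tissues other than liver. It had 4.74, 5.10 and 4.30 CPM in DMSO and 8.01, 9.11 and 7.49 CPM after DSF/Cu, with no overlap. ATP7A rose 1.74-fold (log2 0.80 ± 0.14, 95% interval 0.46 to 1.14, adjusted p = 0.00578, edgeR). These are low levels, carried by 284 to 526 counts per library.

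ATP7B (ENSG00000123191; chr13:51930436-52012125, minus strand) encodes the Wilson disease pump, known best from liver, where it moves copper into bile. Its level was 5.60, 4.62 and 4.04 CPM in DMSO and 4.54, 4.16 and 3.04 CPM after DSF/Cu. Both groups overlapped, and their coefficients of variation were the widest of the transport genes, at 16.6% and 19.8%. The log2 difference of -0.28 ± 0.21 was not called (95% interval -0.79 to 0.23, adjusted p = 0.357, edgeR).

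Sequences just before the start sites are shown for the raised importer and exporter, and for CCS and COX17, 2 genes that were lower in every DSF/Cu library without passing the test. They are the 250 bases before the first RefSeq start of each gene (GRCh38.p14), written in the direction of the gene. Capitals mark matches, on either strand, to any of 4 short motifs. The motifs are the core of the metal response element bound by MTF1 (TGCACNC or TGCGCNC), the core of the antioxidant response element bound by NRF2 (TGANNNNGC), a heat shock element core (GAANNTTC) and the GC box bound by SP1 (GGGCGG). SLC31A1 is chr9:113221294-113221543 on the plus strand, ATP7A is chrX:77910443-77910692 on the plus strand, CCS is chr11:66592935-66593184 on the plus strand and COX17 is chr3:119677407-119677656 on the minus strand.
SLC31A1 promoter: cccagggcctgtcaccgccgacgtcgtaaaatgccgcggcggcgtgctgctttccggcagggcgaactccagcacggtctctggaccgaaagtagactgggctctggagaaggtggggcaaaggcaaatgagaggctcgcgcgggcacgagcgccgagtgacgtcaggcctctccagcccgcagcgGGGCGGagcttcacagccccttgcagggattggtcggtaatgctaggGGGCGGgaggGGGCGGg
ATP7A promoter: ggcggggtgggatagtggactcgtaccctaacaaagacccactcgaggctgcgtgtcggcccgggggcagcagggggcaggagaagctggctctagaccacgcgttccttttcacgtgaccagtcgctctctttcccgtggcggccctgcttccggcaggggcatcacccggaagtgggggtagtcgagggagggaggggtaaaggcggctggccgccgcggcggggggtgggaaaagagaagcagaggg
CCS promoter: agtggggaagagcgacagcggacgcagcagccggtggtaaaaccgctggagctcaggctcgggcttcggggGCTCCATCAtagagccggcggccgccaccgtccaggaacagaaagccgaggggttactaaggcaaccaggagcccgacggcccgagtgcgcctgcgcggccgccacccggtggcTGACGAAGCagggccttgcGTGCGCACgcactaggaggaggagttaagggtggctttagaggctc
COX17 promoter: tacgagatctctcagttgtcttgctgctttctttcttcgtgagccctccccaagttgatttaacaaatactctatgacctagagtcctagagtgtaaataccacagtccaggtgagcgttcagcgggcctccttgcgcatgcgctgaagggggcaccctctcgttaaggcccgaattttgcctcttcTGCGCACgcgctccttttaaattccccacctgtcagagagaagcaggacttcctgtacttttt

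The raised importer and the raised exporter shared none of these matches. The SLC31A1 window held 3 GC boxes, which begin 64, 17 and 7 bases before the start, and no other motif. The ATP7A window held none of the 4 motifs. In CCS, overlapping matches to the metal response core on both strands begin 46 and 45 bases before the start, and antioxidant cores begin 179 and 65 bases before it. COX17 held 1 metal response core, which begins 63 bases before the start. RefSeq promoter sequences matched 7 of the 10 genes by symbol, and SLC31A2, SOD1 and SCO2 were not matched. Of those 7, ATOX1, CCS and COX17 held a metal response core (3 of 7, against 24.8% of 35116 promoters of this length). ATP7B and CCS held an antioxidant core (2 of 7, against 35.2%), none held the heat shock core (5.78% of all), and SLC31A1, ATP7B, ATOX1 and SCO1 held a GC box (4 of 7, against 42.6%). Other RefSeq starts of the same genes give other matches. The second ATP7B window held 2 metal response cores and the third a heat shock core, and the second COX17 window held an antioxidant core and 4 GC boxes beside a metal response core. All are matches of letters, not shown to be bound.

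Among the cytosolic carriers, the client enzyme SOD1 rose while its chaperone CCS and the pump chaperone ATOX1 were not called. SOD1 (ENSG00000142168; chr21:31659622-31668931, plus strand) encodes the copper and zinc superoxide dismutase, which turns superoxide into hydrogen peroxide and oxygen. It stood at 131, 140 and 140 CPM in DMSO and at 265, 306 and 258 CPM after DSF/Cu. All DSF/Cu libraries were well above all DMSO libraries, and the second DSF/Cu library was the highest. SOD1 rose 2.01-fold (log2 1.01 ± 0.08, 95% interval 0.82 to 1.20, adjusted p = 0.00027, edgeR), the largest called change of the 10 genes.

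CCS (ENSG00000173992; chr11:66593153-66606019, plus strand) encodes the chaperone that inserts copper into SOD1. Its level was 12.7, 15.2 and 12.4 CPM in DMSO and 11.0, 9.59 and 10.5 CPM after DSF/Cu. No DSF/Cu library reached the lowest DMSO library, but the log2 difference of -0.37 ± 0.12 missed the threshold (95% interval -0.67 to -0.08, adjusted p = 0.0577, edgeR). Scaled by total counts in place of TMM, CCS was called lower (log2 -0.56, adjusted p = 0.0114, edgeR).

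ATOX1 (ENSG00000177556; chr5:151742316-151758631, minus strand), the chaperone of ATP7A and ATP7B, was the steadiest of the 10 genes. It had 82.7, 87.1 and 83.0 CPM in DMSO and 85.8, 91.6 and 85.5 CPM after DSF/Cu, and the groups overlapped. The log2 difference was 0.06 ± 0.06 (95% interval -0.08 to 0.19, adjusted p = 0.495, edgeR), an interval that runs from 0.946-fold to 1.14-fold. Under total counts the sign turned (log2 -0.13), still without a call.

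The mitochondrial carriers lay lower after DSF/Cu, and none passed the test. COX17 (ENSG00000138495; chr3:119654513-119677454, minus strand) encodes the small protein that delivers copper to SCO1 and COX11 in the space between the mitochondrial membranes. It had 30.7, 32.9 and 31.0 CPM in DMSO and 25.5, 28.9 and 28.2 CPM after DSF/Cu, without overlap. The log2 difference was small at -0.20 ± 0.08 (95% interval -0.39 to -0.005, adjusted p = 0.104, edgeR). It became a call under total counts (log2 -0.38, adjusted p = 0.0140, edgeR).

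SCO1 (ENSG00000133028; chr17:10672474-10698375, minus strand) encodes a carrier that passes copper to the cytochrome c oxidase subunit MT-CO2. It had 83.4, 54.9 and 83.6 CPM in DMSO and 54.1, 60.8 and 54.8 CPM after DSF/Cu. The second DMSO library stood apart from the other DMSO libraries and lay inside the DSF/Cu range. With all libraries the log2 difference was -0.39 ± 0.17 (95% interval -0.79 to 0.01, adjusted p = 0.123, edgeR). Without DMSO replicate 2 it was -0.57 and passed the test (adjusted p = 0.00656, edgeR), so 1 library decided this call. Under total counts SCO1 was also called, at -0.57 (adjusted p = 0.0376, edgeR).

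SCO2, the partner carrier of SCO1, appears as 2 overlapping Ensembl genes in the table, on the minus strand of chr22:50523568-50526439. The main row, ENSG00000130489, had 3.33, 3.92 and 6.92 CPM in DMSO and 3.0, 1.13 and 2.63 CPM after DSF/Cu, from 65 to 457 counts. The groups did not overlap, but libraries within a group varied widely, with coefficients of variation of 40.7% and 44.0%. The log2 difference of -1.07 ± 0.44 was the largest of the set without being called (95% interval -2.11 to -0.03, adjusted p = 0.105, edgeR). It moved between -1.33 and -0.69 when 1 library was left out, and was -0.69 without DMSO replicate 3 (adjusted p = 0.289, edgeR). The other row, ENSG00000284194, had 0, 37 and 46 counts in DMSO and none after DSF/Cu, too few to test. Summing both rows, a step chosen after the data were seen, gave -1.19 (adjusted p = 0.0843, edgeR).

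SCO2 shares 48.8% of its exon bases with an antisense gene, U62317 (ENSG00000272821), which fell (log2 -0.91 ± 0.18, adjusted p = 0.00855, edgeR). Its second row shares 83.9% of the exon bases of the first. Within the deposited spans it also overlaps NCAPH2, a condensin II subunit on the other strand, which fell (log2 -0.32 ± 0.06, adjusted p = 0.00973, edgeR). With the strand of counting not given, the SCO2 values may hold reads of these neighbours. Smaller shares of exon bases overlap in CCS (10.6%, CCDC87, at most 15 counts) and COX17 (17.6%, POPDC2, at most 8 counts). ATOX1 shares 2.48% of its exon bases with G3BP1 on the other strand, so its values may hold reads of that gene. G3BP1 had 15062 to 21862 counts and was not called (log2 0.13 ± 0.10, adjusted p = 0.348, edgeR). The second SCO2 row shares 28.3% with TYMP on the same strand, which had 47 to 115 counts. ATP7A shares 2.63% with AL356235, at most 11 counts. In ATP7A, 97 exon bases (0.888%) are shared with PGK1 on the same strand. Counting by strand would not separate reads of these bases, so the ATP7A values may hold reads of PGK1. PGK1 had 23506 to 34412 counts and was not called under TMM (log2 -0.01 ± 0.05, adjusted p = 0.834, edgeR). It was lower under total counts (log2 -0.20, adjusted p = 0.0122, edgeR). Pseudogenes named after the copper genes had at most 10 counts in any library.

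**Figure D2:**
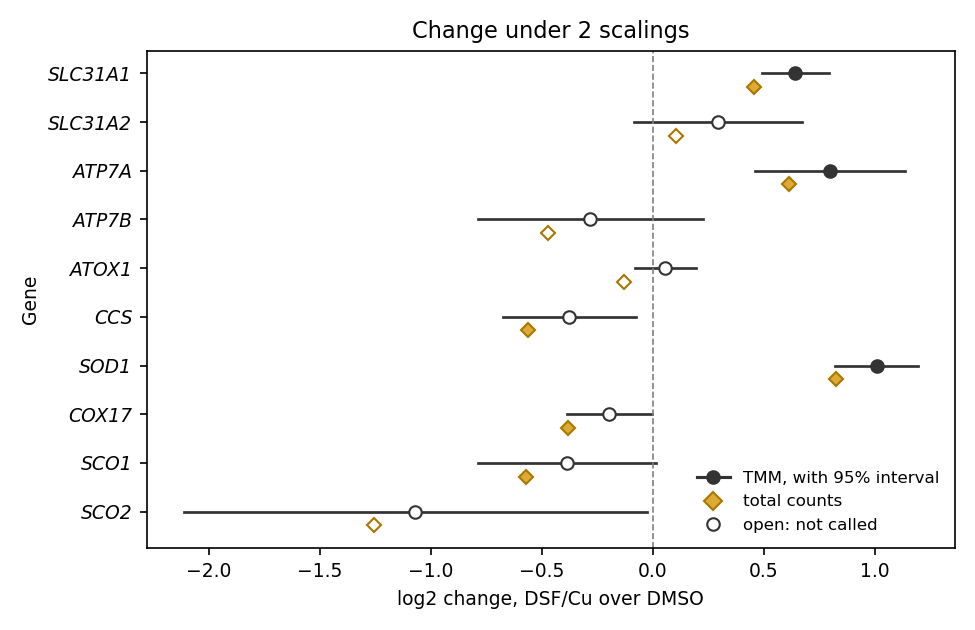
The log2 change of each copper gene, DSF/Cu over DMSO. Circles with 95% intervals are the TMM-scaled fit, diamonds the fit scaled by total counts, and filled symbols passed the test; 3 genes are called higher under both scalings, and CCS, COX17 and SCO1 are called lower under total counts alone.

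Calls on the lower side of the set depended on the scaling, and those on the raised side did not. TMM factors averaged 1.07 in DMSO and 0.938 after DSF/Cu, so total counts shift the median of all tested genes by -0.18 on the log2 scale. Under total counts the raised genes were again SLC31A1, ATP7A and SOD1 (3 of 10, against 12.9% of all tested genes). CCS, COX17 and SCO1 were then lowered (3 of 10, against 26.6%). The median of the 10 genes was -0.25 under total counts, beside -0.18 for all tested genes.

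Ratios between copper genes within a library do not depend on the scaling, and 6 were compared. They use the deposited FPKM, which divide by gene length. For 3 DMSO against 3 DSF/Cu libraries, a two-sided exact permutation test cannot give a p below 0.1. The ratios SOD1 to CCS, SLC31A1 to ATP7A and COX17 to SCO1 pair a client with its carrier, import with export, and a donor with its recipient. The other 3 were added after the values were seen.

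SOD1 and its chaperone gave the largest difference in ratio among the 6. The ratio of SOD1 to CCS was 11.0, 9.81 and 12.0 in DMSO and 25.9, 34.0 and 26.2 after DSF/Cu, 2.61-fold higher without overlap (exact permutation p = 0.1; 0.15 adjusted over the 6 ratios). The importer and the raised exporter did not separate the groups by their ratio. SLC31A1 to ATP7A was 34.3, 34.2 and 41.1 in DMSO and 32.2, 30.8 and 34.9 after DSF/Cu, with overlap (exact permutation p = 0.3; 0.36 adjusted). COX17 to SCO1 was 1.74, 2.84 and 1.75 in DMSO and 2.23, 2.25 and 2.43 after DSF/Cu (exact permutation p = 0.4; 0.40 adjusted). The second DMSO library, where SCO1 was low, gave the highest value of COX17 to SCO1.

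In both pairs of related transporters the ratio of the raised gene to its relative was higher in every DSF/Cu library. ATP7A to ATP7B was 0.751, 0.982 and 0.950 in DMSO and 1.57, 1.95 and 2.19 after DSF/Cu, so that the Menkes pump went from below the Wilson pump to above it (exact permutation p = 0.1; 0.15 adjusted). SLC31A1 to SLC31A2 was 5.71, 5.05 and 5.90 in DMSO and 6.45, 6.67 and 8.29 after DSF/Cu (exact permutation p = 0.1; 0.15 adjusted). SLC31A1 to ATOX1 was the tightest ratio, at 0.939, 0.957 and 1.02 in DMSO and 1.44, 1.47 and 1.46 after DSF/Cu (exact permutation p = 0.1; 0.15 adjusted). None of the last 3 overlapped between groups, and each was chosen with the values of its genes known.

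**Figure D3:**
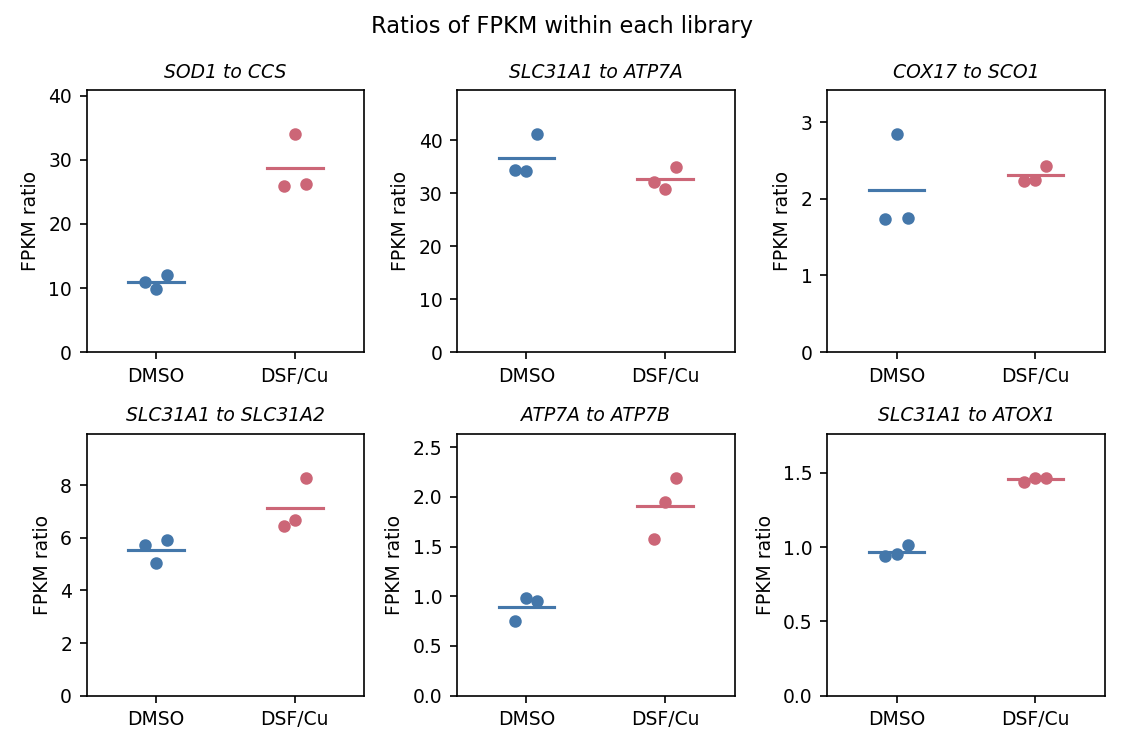
Ratio of deposited FPKM between copper genes within each library; points are libraries, bars group means, and each vertical axis starts at 0. SOD1 to CCS, ATP7A to ATP7B, SLC31A1 to SLC31A2 and SLC31A1 to ATOX1 separate the groups, whereas SLC31A1 to ATP7A and COX17 to SCO1 overlap.

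The level per length differed widely among the 10 genes. In DMSO, SOD1 was highest at 61.3 ± 2.04 FPKM (SD, n = 3). ATOX1, SLC31A1 and COX17 followed at 14.5 ± 0.35, 14.1 ± 0.55 and 13.1 ± 0.43 FPKM, and neighbours among these 3 overlapped. SCO1, CCS and SCO2 formed the next overlapping run, at 6.48 ± 1.48, 5.63 ± 0.63 and 4.16 ± 1.69 FPKM. SLC31A2 was at 2.55 ± 0.25 FPKM, and the pumps ATP7B and ATP7A were lowest at 0.440 ± 0.076 and 0.387 ± 0.033 FPKM, overlapping each other.

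After DSF/Cu no neighbours in the order overlapped. SOD1 stood at 110 ± 10.6 FPKM, SLC31A1 at 19.5 ± 1.09, ATOX1 at 13.4 ± 0.63 and COX17 at 10.1 ± 0.82 FPKM. SLC31A1 thus lay above ATOX1, its neighbour in DMSO. SCO1 was at 4.40 ± 0.32, CCS at 3.84 ± 0.22, SLC31A2 at 2.77 ± 0.39 and SCO2 at 1.75 ± 0.76 FPKM, and ATP7A had passed ATP7B. The order depends on the length used: the exons of ATOX1 add up to 5239 bases, and its principal transcript has 749. Over principal transcript lengths, a choice added after the data were seen, ATOX1 came to 113 CPM per kb in DMSO, close below SOD1 at 142 and far above SLC31A1 at 16.9.

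The genes whose pattern over the 6 libraries was nearest to that of SOD1, by Euclidean distance of centred log2 CPM among 5948 protein-coding genes of at least 5 FPKM, were AKR1C3, STAM and SEC24A. AKR1C3, an aldo-keto reductase, lay at a distance of 0.131, with a log2 difference of 0.91 ± 0.08. STAM, an endosomal sorting protein, lay at 0.150, with a log2 difference of 0.98 ± 0.05. SEC24A, a cargo adaptor of the vesicles that leave the endoplasmic reticulum, lay at 0.173, with a log2 difference of 0.99 ± 0.06. Nearness to SOD1 selects genes that are higher after DSF/Cu, so these differences are a description, with no test.

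Genes around copper handling were read from 6 further lists with 90 genes in the table, of which 84 were tested: 17 were raised, 19 were lowered and 48 were not called. Beside them stand the 18.5% raised and 16.8% lowered of all tested genes, against which each list below is also to be read. Under total counts 11 were raised and 29 lowered, where all tested genes gave 12.9% and 26.6%. No list was tested against the other genes, and the lists were chosen with earlier results of these data known.

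Uptake genes other than the CTR family were mostly not called: 1 of 8 was raised and 2 were lowered, with a median log2 of 0.02, and under total counts 1 was raised and 3 were lowered. STEAP3, a metal reductase of internal membranes, and its relative STEAP1 fell by 0.85 ± 0.08 and 0.44 ± 0.09 on the log2 scale (adjusted p = 0.00048 and 0.0112, edgeR). SLC46A3, a lysosomal transporter linked to copper, rose from 6.49 to 10.3 CPM (log2 0.67 ± 0.14, adjusted p = 0.0119, edgeR).

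Genes that carry copper within mitochondria and build the copper sites of cytochrome c oxidase held 7 of 18 that fell and 2 that rose, with a median log2 of -0.19; under total counts 10 were lowered and 1 raised. COX18, which inserts MT-CO2 into the inner membrane, fell by 0.76 ± 0.10 (adjusted p = 0.00221, edgeR). The assembly factor COA4 fell by 0.50 ± 0.07 (adjusted p = 0.00256, edgeR), and COX11, which receives copper from COX17 for the subunit MT-CO1, fell by 0.45 ± 0.08 (adjusted p = 0.00593, edgeR). COX19, a partner of COX11, rose by 0.47 ± 0.09 (adjusted p = 0.00837, edgeR), and COA6, a partner of the SCO proteins, rose by 0.32 ± 0.06 (adjusted p = 0.0103, edgeR), though COA6 was not called under total counts (adjusted p = 0.177, edgeR). The copper-bearing subunits themselves, looked up after the values were seen, were not called: MT-CO1 was at 0.03 ± 0.05 and MT-CO2 at -0.11 ± 0.05 (adjusted p = 0.673 and 0.156, edgeR). Under total counts MT-CO1 turned to -0.15 and both were called lower (adjusted p = 0.0322 and 0.00268, edgeR).

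Of 13 copper enzymes 3 rose and 4 fell, with a median log2 of -0.31, and under total counts 2 were raised and 5 lowered. The lysyl oxidases LOXL2 and LOXL1, which cross-link collagen and elastin, fell by 0.93 ± 0.07 and 1.16 ± 0.13 (adjusted p = 0.00023 and 0.00089, edgeR), and the monooxygenase-like MOXD1 fell by 0.97 ± 0.13 (adjusted p = 0.00208, edgeR). The amine oxidases AOC3 and AOC2 rose by 1.16 ± 0.13 and 0.81 ± 0.14 (adjusted p = 0.00097 and 0.00503, edgeR). They are close relatives, so reads of one may be counted for the other. LOX rose by 0.29 ± 0.07 (adjusted p = 0.0171, edgeR). With DMSO replicate 2 left out it was at 0.24 (adjusted p = 0.0531), without DSF/Cu replicate 2 at 0.29 (adjusted p = 0.0546), and under total counts at 0.10 (adjusted p = 0.297, all edgeR).

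The Commander and retromer complexes return membrane proteins, ATP7A among them, from endosomes. Of their 19 genes 5 rose and 4 fell, with a median log2 of -0.04, and under total counts 3 were raised and 6 lowered. VPS35L, a core Commander subunit, rose from 3.08 to 7.38 CPM (log2 1.26 ± 0.14, adjusted p = 0.00105, edgeR). VPS26C rose by 0.56 ± 0.13 and CCDC93 by 1.41 ± 0.35 (adjusted p = 0.0167 and 0.0207, edgeR). COMMD3 fell by 0.45 ± 0.10 and the retromer subunits VPS29 and VPS26B fell by 0.31 ± 0.07 and 0.26 ± 0.06 (adjusted p = 0.0135, 0.0147 and 0.0171, edgeR). With 1 library fewer, 4 of these genes could miss the threshold, with log2 changes in those fits near the values above. Fits that kept the call moved further in VPS26C, between 0.41 and 0.65, and in CCDC93. CCDC93 was at 1.69 without DMSO replicate 1 and at 1.07 without DMSO replicate 3. VPS26C was at 0.55 and 0.52 without DMSO replicate 1 or 2 (adjusted p = 0.0544 and 0.0605, edgeR). CCDC93 was at 1.51 without DMSO replicate 2 and at 1.41 without any 1 DSF/Cu replicate (adjusted p = 0.0502 to 0.0548, edgeR). VPS29 was at -0.29, -0.29 and -0.28 without DMSO replicate 2 or 3 or DSF/Cu replicate 2 (adjusted p = 0.0502 to 0.0520, edgeR). VPS26B was at -0.26, -0.26 and -0.23 without DMSO replicate 3 or DSF/Cu replicate 2 or 3 (adjusted p = 0.0515 to 0.0572, edgeR).

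Of 15 regulators tied to copper 6 rose and 1 fell, with a median log2 of 0.22, and under total counts 4 were raised and 1 lowered. MTF1, the zinc-sensing factor that switches on metallothioneins, rose 2.68-fold, from 21.1 ± 0.28 to 56.6 ± 4.21 CPM (SD, n = 3; log2 1.42 ± 0.08, adjusted p = 9.1e-05, edgeR). ULK1, an autophagy kinase that binds copper, rose by 1.26 ± 0.12, and the glutaredoxin GLRX by 0.84 ± 0.08 (adjusted p = 0.00053 and 0.00054, edgeR). CUTC fell by 0.36 ± 0.07 (adjusted p = 0.00794, edgeR). A further list held 11 genes of protein lipoylation and of the enzyme complexes that use it, a process linked to copper in cuproptosis. Of these none rose and 1 fell, with a median log2 of -0.17, and under total counts none was raised and 4 were lowered. The gene that fell under TMM was FDX1, a mitochondrial ferredoxin (log2 -0.35 ± 0.08, adjusted p = 0.0183, edgeR). FDX1 was at -0.29, -0.34 and -0.34 without DMSO replicate 2, DSF/Cu replicate 1 or DSF/Cu replicate 3 (adjusted p = 0.0569, 0.0505 and 0.0520, edgeR).

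**Figure D4:**
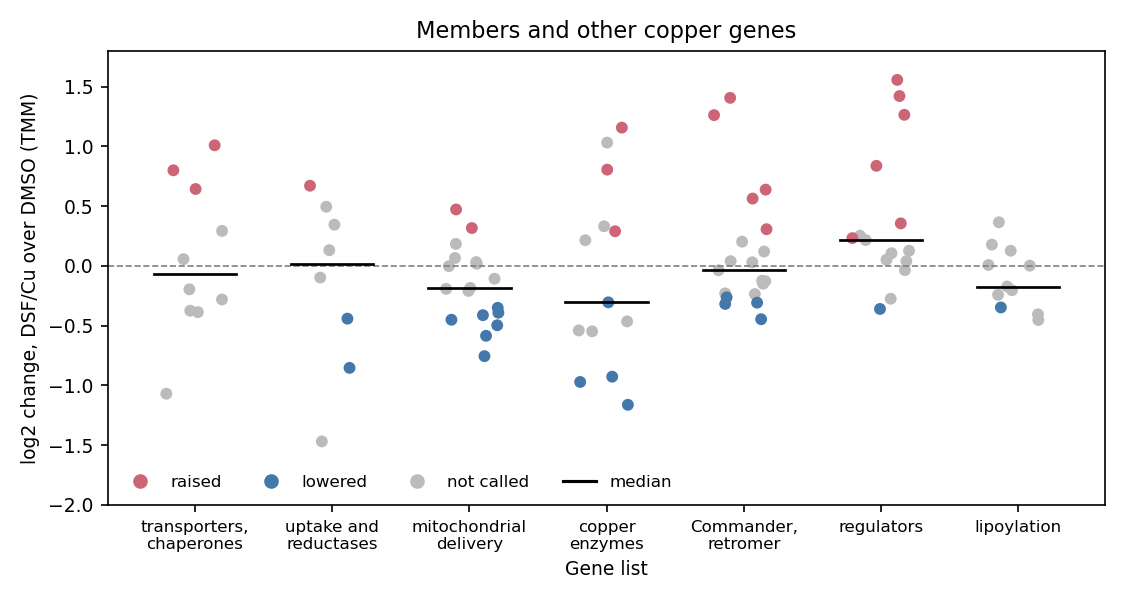
TMM-scaled log2 change of the copper transport and chaperone genes (left) and of the tested genes of 6 further copper lists; each point is a gene, coloured by its call, and bars are medians. The mitochondrial delivery list has 7 genes called lower and 2 called higher, and the regulators 6 called higher and 1 lower.

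Across 14 other ways of processing the same libraries, SLC31A1 and SOD1 were called raised each time, with log2 changes of 0.44 to 0.67 and 0.82 to 1.06. ATP7A was tested in 12 of them and called in 11. The exception was the fit to log2 (FPKM + 1) with no filter, where the pseudocount of 1 is larger than any ATP7A value (log2 0.21, adjusted p = 0.0738, limma).

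**Figure D5:**
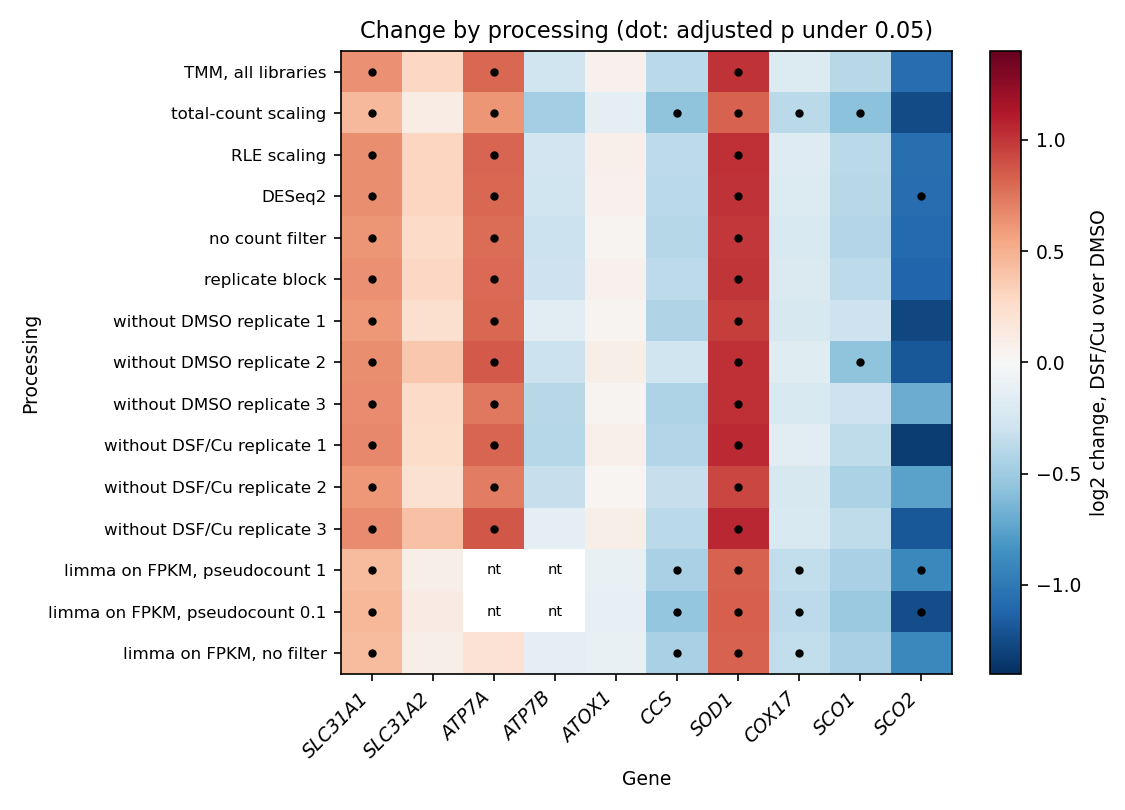
The log2 change of each copper gene (colour) under each way of processing (rows), with a dot where the adjusted p was under 0.05 and nt where the gene was not tested. SLC31A1 and SOD1 carry a dot in every row, while CCS, COX17, SCO1 and SCO2 carry one in 2 to 4 rows each.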

How the data were processed

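Counts were deposited as whole numbers per gene for each of the 6 libraries, per the file headers, without scaling. FPKM were deposited beside them, per the file headers, as values per gene length and library size. Columns headed Control were taken as DMSO. The submitters' processing notes give HISAT2 2.0, StringTie 1.3.0 and Bowtie 0.12.2, with no order, and the build mm8, although the genes are human. Of 11 rows for the copper genes, 8 have the start and 9 the end of GENCODE 29 (GRCh38). How reads were counted, on which strand and with which annotation is not given in the sources used here.

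Genes were filtered with filterByExpr, scaled by TMM and tested with edgeR 4.0.16 in R 4.3.3 (quasi-likelihood F test, two-sided, Benjamini-Hochberg over 18229 genes). The SE is the absolute log2 change over the square root of F. DESeq2 1.42.0 and limma 3.58.1 on log2 (FPKM + 1) and log2 (FPKM + 0.1) were alternatives, with a mean FPKM of at least 1 in a group as filter. The steps were tested on simulated counts with 200 changed genes. That is far fewer than were called here, so the simulation does not bear on the choice of scaling. Levels are given as TMM-scaled CPM within a gene and as FPKM between genes.

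The copper genes and lists were chosen with earlier results of these data known. All 10 copper genes are named whatever their result, with up to 3 called genes a list and direction by adjusted p. The 3 genes nearest in pattern to the called gene with the largest rise are also named. Genes with 10 or more counts in a library are named where they share exon bases with a copper gene. Overlapping genes that share no exon bases are named only in part. No copper gene was called lower, so the pattern rule for falls named none. The listed gene DENND10 was not matched. Deviations from the group means of same-numbered libraries correlated at 0.02, -0.01 and 0.04, against -0.05 to 0.03 for libraries of unlike number. These values show no clear pairing by number, and they cannot tell whether the samples were paired in the experiment. Between libraries of a group, the chi-square of gene counts was 50.2 to 64.0 per degree of freedom, so no library copies another of its own group. DMSO libraries were not compared with DSF/Cu libraries in this way. Protein sequence features were not analysed here. A cell type marker of the design is not reported here.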

Additional observations from a re-analysis of the deposited data

How the results depend on the processing

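Total counts in place of TMM gave 4856 genes lowered, 3 copper genes lowered (CCS at -0.56, COX17 at -0.38 and SCO1 at -0.57), and 11 raised and 29 lowered genes of the lists. With limma on FPKM, 1945 genes were raised (pseudocount 1), 1947 (0.1) or 2235 (no filter), 3, 3 and 2 copper genes were lowered, 11, 11 and 9 list genes were raised, and 29 and 29 were lowered with the filter. In that order CCS was at -0.45, -0.54 and -0.45, COX17 at -0.34, -0.37 and -0.34, and SCO2 at -0.90 and -1.24 with the filter; ATP7A without it was at 0.21 and not called. FPKM carry the authors' own library scaling and come from the same counts, so they are no independent check. DESeq2 called 1 copper gene lower, SCO2 at -1.07 (adjusted p = 0.0424).

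Leaving out 1 library at a time gave 3 raised copper genes each time and 0 to 1 lowered, with SCO1 between -0.57 and -0.29 on the log2 scale. A fit with the replicate block called 2692 genes raised and 2451 lowered, against 3365 and 3059, and the same numbers of copper genes raised and lowered (3 and 0); VPS26B missed the threshold there at -0.26 (adjusted p = 0.0541). Same-numbered libraries were not each other's nearest in every case, so lost calls are not read as weaker effects. MT-CO1 turned from 0.03 to -0.15 under total counts.

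Over principal transcript lengths, mean ratios in DMSO and DSF/Cu were 15.2 and 39.8 for SOD1 to CCS, 6.27 and 6.84 for COX17 to SCO1, 0.151 and 0.226 for SLC31A1 to ATOX1, 30.7 and 27.5 for SLC31A1 to ATP7A, and 4.34 and 5.58 for SLC31A1 to SLC31A2. Over exon lengths SOD1 to CCS in DMSO was 12.6. The length multiplies both groups alike. With 3 libraries a group, differences as small as that of COX17 could not be settled, and ATP7A, ATP7B and SCO2 rest on few counts.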
